A study of Mus musculus with 4 samples.

Results

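The genes described here are 6 synaptic adhesion molecules, chosen by symbol: the neuroligins Nlgn1, Nlgn2 and Nlgn3, the neurexins Nrxn2 and Nrxn3, and the L1-family protein gene Nrcam. They are 6 of the 23475 genes in the joined count tables, and all 6 passed the filter on low counts. Expression was measured by mRNA sequencing of astrocytes isolated from mouse cerebral cortex at postnatal day 5, in 2 libraries titled WT and 2 titled KO. The series text names the genotypes as PD1fl/fl and PD1cKO-Cx3, read here as WT and KO, so both groups carry the floxed PD-1 gene and the KO group carries its conditional deletion. The text does not spell out the driver of the deletion, and the sources used here do not state the sex, the strain or the number of animals behind each library. With no statement that libraries came from separate animals, p-values measure only the spread between these libraries.

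Neurexins are presynaptic membrane proteins that reach across the synaptic cleft to bind neuroligins, and the pair helps to organise the contact on both sides. Neurexins are transcribed from several promoters as long and short forms and are heavily spliced. Astrocytes also carry neuroligins, which are known to take part in the growth of their branched shape through contact with neuronal neurexins. NrCAM is an adhesion protein with ankyrin and contactin partners. It is known from nodes of Ranvier and growing axons, and occurs on astrocyte processes near inhibitory synapses. Neurons, oligodendrocyte precursors and astrocytes all express members of these families.

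Listed counts per library ranged from 14224519 to 16961160. The astrocyte markers (15 genes, all detected) summed to between 8379 and 9660.1 CPM. CPM are counts scaled to TMM-adjusted library sizes. The libraries also held transcripts of other cell types. Neuron markers (25 genes, all detected) summed to 4024 and 4227 CPM in the KO libraries and to 4334 and 4707 CPM in WT. Of these 25, 4 were higher and 9 lower in both KO libraries than in both WT libraries. Microglia markers, 18 of 18 of them higher in both KO libraries than in both WT libraries, summed to 5331 and 4384 CPM in KO and to 989 and 1446 CPM in WT. Endothelial markers (14 of 15 higher in both KO libraries) summed to 939 and 495 CPM in KO and 381 and 212 CPM in WT, and pericyte and fibroblast markers (6 of 12 higher, 0 lower) to 1080.4 and 616 CPM against 516 and 477 CPM. Oligodendrocyte and myelin markers (6 of 13 higher, 1 lower) summed to 886 and 1127 CPM in KO and 701 and 458 CPM in WT. Oligodendrocyte precursor markers (7 of 14 higher, 1 lower) summed to 3018 and 3177 CPM against 2956 and 2334 CPM. Radial glia and progenitor markers (0 of 12 higher, 6 lower) summed to 8977 and 8373 CPM in KO and 9908 and 9352 CPM in WT. This list shares Slc1a3 with the astrocyte markers, so its sums are not separate from the astrocyte sums. Of all tested genes, 21.2% were higher and 18.4% lower in both KO libraries than in both WT libraries. The groups' sums overlapped for astrocyte markers and for none of the other 8 lists. The gap was narrow for oligodendrocyte precursor markers, from 2956 CPM in WT replicate 1 to 3018 CPM in KO replicate 1. It was also narrow for ependymal and choroid plexus markers, at 23.6 and 13.1 CPM in KO and 33.2 and 24 CPM in WT. Some markers of that list were under 1 CPM in every library. KO replicate 2 had 0 counts of Xist and 2472 of the Y-linked Ddx3y, while the other 3 libraries had between 6732 and 8564 counts of Xist and 0 of Ddx3y. In such bulk samples, fewer cells of a type and less RNA per cell cannot be told apart.

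**Figure D1:**
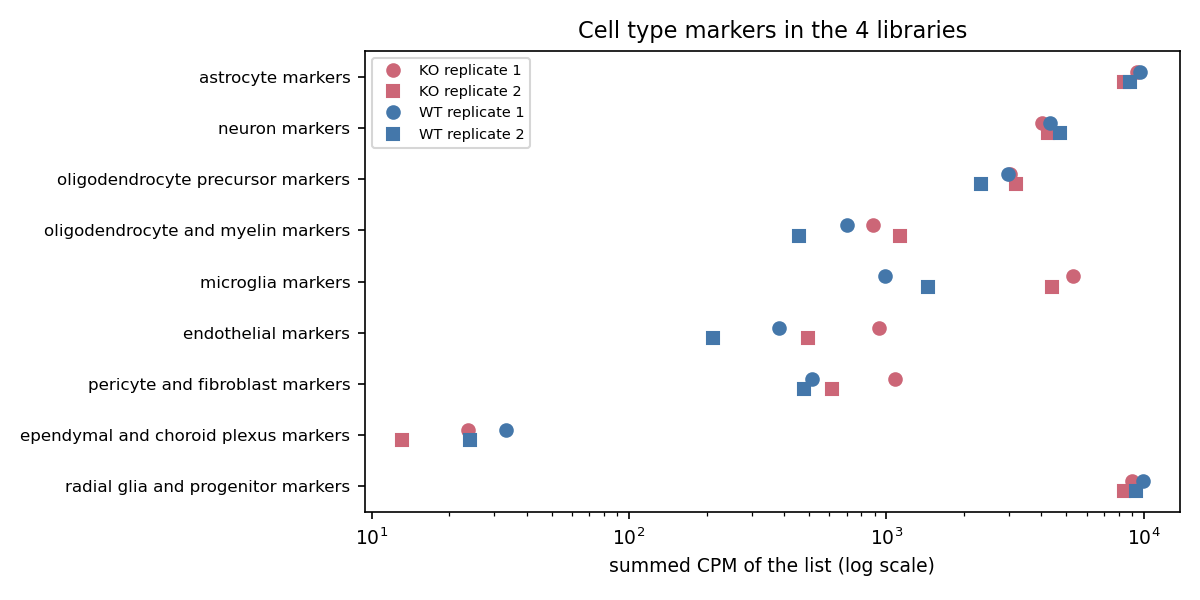
Summed CPM of 9 marker lists (x axis, log scale) in each of the 4 libraries, with circles for replicate 1, squares for replicate 2, red for KO and blue for WT. The KO and WT sums overlap for astrocyte markers (8379 to 9660.1 CPM) and not for the other 8 lists, with the widest separation for microglia markers, and neuron sums increase from KO replicate 1 (4024 CPM) to WT replicate 2 (4707 CPM).

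Of the 6 genes, 0 passed the test between KO and WT (quasi-likelihood F test in edgeR, with p adjusted by Benjamini-Hochberg over 17696 tested genes and a threshold of 0.05), beside 3 genes, or 0.017% of all tested genes, that did. At an unadjusted p under 0.05 there was 1, Nrxn3, which was lower in KO, beside 8.29% of all tested genes in either direction and 2.41% lower in KO. DESeq2 and limma-voom also called 0 of the 6. The KO and WT libraries did not overlap for 3 of the 6 genes, with Nrxn3 and Nlgn1 lower and Nlgn2 higher in KO, while 39.6% of all tested genes did not overlap. Their median log2 fold change of 0.02 stood beside a median of 0.00 over all genes. With 2 libraries a group the intervals given below are wide, and a p that misses the threshold does not show that levels were equal.

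The 6 genes lie on different chromosomes except for Nrxn3 and Nrcam, which share chromosome 12, and differ widely in size (positions on GRCm38, the build whose annotation the deposited positions match). Nlgn1 (ENSMUSG00000063887) covers chr3:25426215-26332460 on the minus strand, 906.2 kb with 13.422 kb of annotated exon. Nlgn2 (ENSMUSG00000051790, chr11:69823122-69837784, minus strand) covers only 14.7 kb with 5.785 kb of exon, and Nlgn3 (ENSMUSG00000031302, chrX:101299168-101325963, plus strand) 26.8 kb with 9.271 kb. Nrxn3 (ENSMUSG00000066392, chr12:88722876-90334935, plus strand) is the longest locus at 1612.1 kb, and Nrxn2 (ENSMUSG00000033768, chr19:6418731-6544169, plus strand) covers 125.4 kb. Nrcam (ENSMUSG00000020598, chr12:44328885-44601964, plus strand) covers 273.1 kb and has 38 separate exon blocks over its 17 annotated transcripts. No stretch of 50 bases in the transcripts of any of them occurs in another of the 6, so exact matches of that length between these genes do not occur.

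RefSeq promoter windows (GRCm38.p6) matched 4 of the 6 genes, with 7 windows in all. 1 window is shown for each of Nlgn1, Nrxn3 and Nlgn2, the genes whose KO and WT libraries did not overlap. Each is the 250 bases before a listed start site, written 5' to 3' on the gene's strand. Capitals mark GGGCGG, the box bound by SP1, on either strand, or TTCAGCACC, the left part of the element bound by the repressor REST. For Nlgn1 the window is the listed one free of annotated exons, and for Nrxn3 it is the most downstream of 3. The windows lie at chr3:26153987-26154236 (minus) for Nlgn1, chr12:89812233-89812482 (plus) for Nrxn3 and chr11:69837785-69838034 (minus) for Nlgn2.
Nlgn1: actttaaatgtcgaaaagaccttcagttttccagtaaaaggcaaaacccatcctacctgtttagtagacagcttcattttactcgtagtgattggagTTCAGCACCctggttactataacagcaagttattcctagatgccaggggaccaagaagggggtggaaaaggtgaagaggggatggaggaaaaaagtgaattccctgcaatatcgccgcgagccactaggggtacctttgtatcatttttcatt
Nrxn3: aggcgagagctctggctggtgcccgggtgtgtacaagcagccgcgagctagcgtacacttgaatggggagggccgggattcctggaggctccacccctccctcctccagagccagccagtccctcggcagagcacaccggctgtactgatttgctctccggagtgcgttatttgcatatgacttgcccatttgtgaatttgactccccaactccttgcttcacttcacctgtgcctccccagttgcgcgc
Nlgn2: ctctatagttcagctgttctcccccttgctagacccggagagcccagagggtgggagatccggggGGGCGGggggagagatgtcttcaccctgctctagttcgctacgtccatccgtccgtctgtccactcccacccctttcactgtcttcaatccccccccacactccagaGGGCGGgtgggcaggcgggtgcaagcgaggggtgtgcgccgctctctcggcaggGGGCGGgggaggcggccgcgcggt
The Nlgn2 window held 3 copies of GGGCGG and 18 CG pairs, against a median of 6 CG pairs over all 32851 windows. The Nlgn1 and Nrxn3 windows held 5 and 12 CG pairs and 0 copies of GGGCGG, which 32.7% of all windows hold. TTCAGCACC occurred in the Nlgn1 window and in 0.301% of all windows. The window of Nrcam, whose groups overlapped, held 1 copy of GGGCGG and 25 CG pairs. The other Nlgn1 window held 9 CG pairs and those of Nrxn3 2 and 5, with 0 copies of GGGCGG and no TTCAGCACC, so windows of 1 gene differed among themselves. Searched on both strands as well were TATAAA, the TATA box, CACGTG, an E-box, and TGACGTCA, the cyclic AMP response element, and none of these occurred in the 3 windows. The counts are summed over whole genes, so they do not say which start site was used.

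Nlgn1 encodes the neuroligin found mainly at excitatory synapses. Its level was 66.8 CPM in KO replicate 1, 102 CPM in KO replicate 2, 107 CPM and 125 CPM in the WT libraries (replicates 1 and 2). Both KO libraries lay below both WT libraries, but KO replicate 2 lay close to WT replicate 1, and KO replicate 1 was the lowest by a wide gap. Mean levels were 84.5 ± 25.1 CPM for KO and 116 ± 12.2 CPM for WT (SD, n = 2 each). The log2 fold change was -0.45 ± 0.24 (SE; 95% interval -1.04 to 0.13), or 0.73-fold, and did not pass (edgeR, adjusted p = 0.71). Without KO replicate 1 it was -0.18, and without KO replicate 2 it was -0.80. The 4 libraries rank for Nlgn1 in the same order as their summed neuron markers. This order is also the reverse of their endothelial sums and of their pericyte and fibroblast sums. The part of these cell types in the result was not tested.

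Nlgn2 encodes the neuroligin of inhibitory synapses. It was measured at 66.0 CPM and 74.5 CPM in KO replicates 1 and 2 and at 62.9 CPM and 56.3 CPM in WT replicates 1 and 2. The groups did not overlap, with KO higher, and the nearest libraries of the groups were 66.0 and 62.9 CPM. The log2 fold change of 0.24 ± 0.18 (SE; 95% interval -0.21 to 0.68) did not pass (edgeR, adjusted p = 0.838). It was 0.15 without KO replicate 2 and 0.16 without WT replicate 2. The oligodendrocyte precursor, myelin, microglia, endothelial and pericyte sums were also higher in both KO libraries, and their part was not tested.

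Nlgn3 encodes a neuroligin present at both kinds of synapse and in glia, and it was the most abundant of the 3 by CPM per kilobase of exon. Its level was 145 CPM in KO replicate 1 and 154 CPM in KO replicate 2, against 153 CPM and 125 CPM in WT replicates 1 and 2. The groups overlapped, since WT replicate 1 lay between the KO libraries. The log2 fold change was 0.11 ± 0.16 (SE; 95% interval -0.28 to 0.49; edgeR, adjusted p = 0.947), and without WT replicate 2 it was -0.03. The gene lies on the X chromosome, and KO replicate 2 was the library without Xist. Without it the log2 fold change was 0.06. Of the exon bases of Nlgn3, 41.2% also belong to Gm21986, a processed transcript on the same strand, which had 14 and 11 counts in the KO libraries and 0 in both WT libraries. Reads in the shared part cannot be told apart by position or strand, and the sources used here do not say how the counting treated them.

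The share of each neuroligin in the neuroligin counts of a library does not depend on how libraries are scaled. Nlgn1 made up 24.0% of these counts in KO replicate 1 (exact Clopper-Pearson 95% interval 22.8% to 25.3%) and 30.9% in KO replicate 2 (29.7% to 32.2%), of 4453 and 5391 counts. In WT it made up 33.2% (31.9% to 34.5%, of 5451 counts) and 40.7% (39.2% to 42.2%, of 4401 counts). These intervals cover counting error only. Those of KO replicate 2 and WT replicate 1 overlap, while the replicates within each group do not, so libraries of 1 group differed by more than counting error. Nlgn2 made up 23.7% and 22.5% in KO and 19.5% and 18.4% in WT, and Nlgn3 made up 52.3% and 46.5% in KO and 47.3% and 40.9% in WT. The log2 ratio of Nlgn1 to Nlgn2 counts was 0.02 and 0.46 in KO and 0.77 and 1.14 in WT. With 2 libraries against 2, an exact permutation test (two-sided) cannot go below p = 0.333, the value this ratio gave. Per kilobase, Nlgn2 exceeded Nlgn1 in all 4 libraries, with 30.7% against 22.6% of the family in WT replicate 1 and 35.6% against 15.5% in KO replicate 1.

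**Figure D2:**
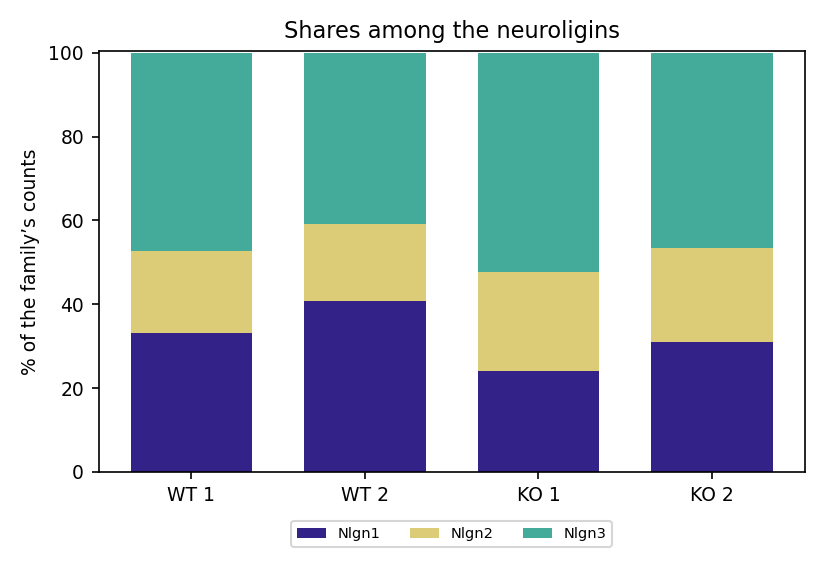
Share of Nlgn1, Nlgn2 and Nlgn3 in the summed neuroligin counts, in percent (y axis), with 1 bar per library. The lowest segment, Nlgn1, is smaller in both KO libraries (24.0% and 30.9%) than in both WT libraries (33.2% and 40.7%).

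Nrxn3 encodes a neurexin that shows a restricted pattern across neuron types. It was measured at 149.5 CPM in KO replicate 1, 181 CPM in KO replicate 2, 220.4 CPM and 259 CPM in the WT libraries (replicates 1 and 2). The groups did not overlap, and the gap between them, from 181 to 220.4 CPM, was about as wide as the distance between replicates. Mean levels were 165 ± 22.3 CPM for KO and 239 ± 27.0 CPM for WT (SD, n = 2 each), a log2 fold change of -0.53 ± 0.16 (SE; 95% interval -0.93 to -0.14), or 0.69-fold. It had an unadjusted p of 0.0161, rank 618 of 17696 genes, and missed the threshold (edgeR, adjusted p = 0.455). The log2 fold change stayed between -0.68 and -0.40 when any 1 library was left out. DESeq2 gave it an adjusted p of 0.0928, the lowest over the alternatives tried, which ran up to 1. For Nrxn3 too the libraries rank as their neuron marker sums do, from 4024 to 4707 CPM, with a log2 ratio of -0.13 between the groups. The same order is the reverse of the endothelial sums (log2 ratio 1.27) and of the pericyte and fibroblast sums (0.77). Like the neuron sums, radial glia sums were lower in both KO libraries (log2 ratio -0.15). Astrocyte sums, which share Slc1a3 with the radial glia sums, overlapped between the groups (-0.05). The part of these cell types in the Nrxn3 result was not tested.

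Nrxn2, the other neurexin of the 6 genes, was the least abundant of them. Its counts were 89 and 83 in KO replicates 1 and 2, and 93 and 66 in WT replicates 1 and 2, or 5.56, 5.09, 5.51 and 4.59 CPM. The groups overlapped. The log2 fold change of 0.08 ± 0.50 (SE; 95% interval -1.16 to 1.31; edgeR, adjusted p = 0.993) leaves room for a change of 0.447-fold to 2.49-fold. It was -0.05 without WT replicate 2. Of its exon bases 6.44% overlap other genes, 682 of them shared with Slc22a12 on the opposite strand.

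The log2 ratio of Nlgn1 to Nrxn3 counts was -1.16 and -0.82 in KO and -1.04 and -1.05 in WT, with the groups overlapping, while Nlgn1 and Nrxn3 were each lower in both KO libraries. The log2 ratio of Nrxn3 to Nrxn2 counts was 4.75 and 5.15 in KO and 5.32 and 5.82 in WT, a difference of -0.62 (exact permutation p = 0.333, the smallest possible). Of the 6 ratios computed within or across these families, each had an adjusted p of at least 0.4.

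Nrcam had 185 CPM in KO replicate 1 and 216 CPM in KO replicate 2, and 205 and 208 CPM in WT replicates 1 and 2. Both WT libraries lay between the KO libraries. The log2 fold change was -0.04 ± 0.13 (SE; 95% interval -0.38 to 0.29; edgeR, adjusted p = 0.981), which is 0.971-fold with an interval from 0.771-fold to 1.22-fold. It was 0.07 without KO replicate 1. Nrcam made up 42.7% and 46.3% of the counts of the 4 L1-family genes in KO and 45.4% and 48.1% in WT. It was the most abundant of that family in each library, by counts and per kilobase of exon.

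**Figure D3:**
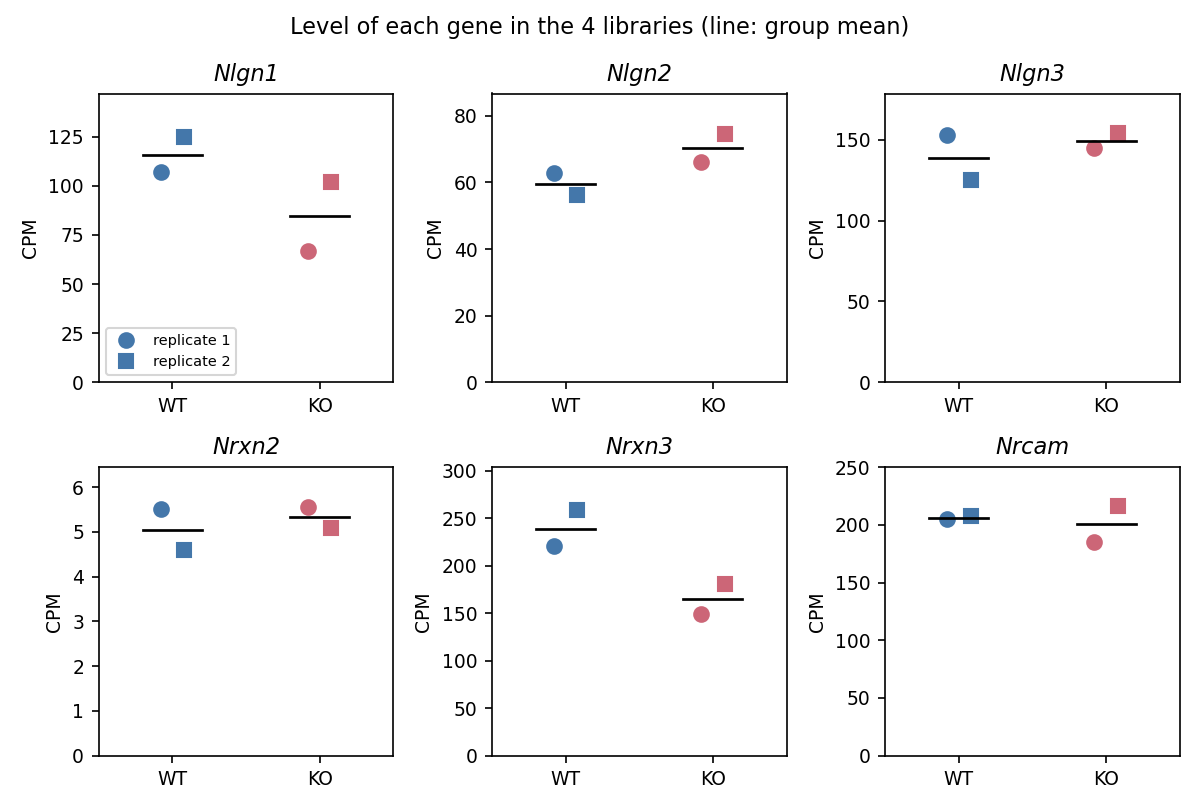
CPM (y axis, from 0) of each of the 6 genes in the 2 WT and 2 KO libraries, with circles for replicate 1, squares for replicate 2 and a line at the group mean. Nlgn1 and Nrxn3 are lower in both KO libraries, Nlgn2 is higher in both, and the groups overlap for Nlgn3, Nrxn2 and Nrcam.

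Levels can be compared between genes per kilobase of annotated exon. Over the 4 libraries Nrxn3 averaged 16.1 CPM per kilobase (range 11.9 to 20.5), Nlgn3 15.6 (13.5 to 16.6) and Nrcam 15.2 (13.8 to 16.2), and the ranges of these neighbours overlapped. Nlgn2 followed at 11.2 CPM per kilobase (9.73 to 12.9), Nlgn1 at 7.47 (4.98 to 9.28) and Nrxn2 at 0.376 (0.332 to 0.403), each below the gene before it in all 4 libraries. The order within a group differed at the top. In the KO libraries Nlgn3 led with a mean of 16.1 CPM per kilobase and Nrxn3 had 13.1, while in WT Nrxn3 led with 19.0 and Nlgn3 had 15.0. Divided by the longest annotated transcript in place of all exons, Nrcam led with 32.4 CPM per kilobase before Nrxn3 with 25.5 and the lower part of the order (Nlgn3, Nlgn2, Nlgn1, Nrxn2) was the same. Other genes share 41.2% of the exon bases of Nlgn3, 3.48% of those of Nrxn3 and 0% of those of Nrcam. How reads in shared bases were counted is not stated, so the place of Nlgn3 in this order is uncertain.

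**Figure D4:**
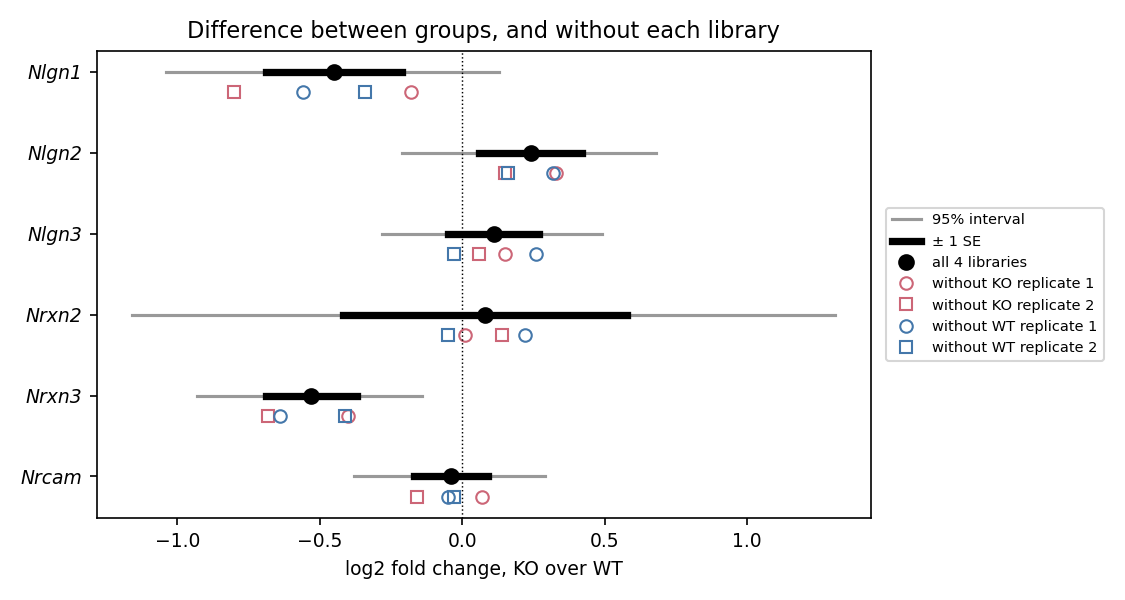
Log2 fold change of KO over WT (x axis) for each gene, with the fit to all 4 libraries as a black point, 1 SE as a thick line and the 95% interval as a thin one. Open symbols give the value without 1 library; the Nrxn3 values stay between -0.68 and -0.40, and those of Nlgn1 spread from -0.80 to -0.18.

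Genes whose pattern over the 4 libraries came closest were sought among 9953 named protein-coding genes with a mean of at least 10 CPM, by the root mean square difference of mean-centred log2 CPM. For Nrxn3 these were Lmo1 (0.006) and Tcaim (0.018), and for Nlgn1 Lnpep (0.028) and Enox1 (0.046). Nlgn2 was nearest to Ythdc1 (0.008) and Mtmr2 (0.013), Nlgn3 to Cdkal1 (0.008) and Mks1 (0.009), Nrxn2 to Cav1 (0.004) and Slc12a7 (0.006), and Nrcam to Rit1 (0.004) and Osbpl1a (0.008). Among the 6 genes themselves, Nrxn3 and Nlgn1 differed by 0.122, and 274 genes were closer to Nrxn3 than Nlgn1 was. Nlgn2 and Nlgn3 differed by 0.084. With 4 libraries many genes share a pattern: between 87 and 970 genes lay within 0.1 of each of the 6.

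The other genes of these adhesion systems were described by lists. Of 22 tested neurexin ligands, 0 passed the threshold, 12 had a log2 fold change above 0 and the median was 0.10. The most abundant were Dag1, which encodes dystroglycan, at 420.1 and 318 CPM in KO against 358 and 313 CPM in WT, and the calsyntenin Clstn1, with a log2 fold change of 0.20 ± 0.15 (SE). The smallest p belonged to Gabbr1, a subunit of the GABA-B receptor, at 173 and 154 CPM in KO against 211 and 234 CPM in WT (log2 fold change -0.45 ± 0.14; edgeR, adjusted p = 0.457), and to Clstn2 (0.95 ± 0.31, adjusted p = 0.488). For 10 of the 22 genes the groups did not overlap, 6 with KO higher and 4 lower, beside 39.6% of all tested genes.

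Among the 12 proteins that block, bridge or cleave neuroligins and neurexins, 0 passed, 6 lay above 0 and the median log2 fold change was 0.05. Sparcl1, or hevin, an astrocyte protein that bridges neurexins and neuroligins, was by far the most abundant at 3143 and 2662 CPM in KO against 3305 and 3302 CPM in WT (log2 fold change -0.19 ± 0.09 SE; edgeR, adjusted p = 0.684). Its relative Sparc, known to oppose hevin, had 331 and 207 CPM in KO and 150.3 and 145 CPM in WT (0.87 ± 0.23, adjusted p = 0.421). Adam10, the protease that sheds neuroligins and neurexins from the membrane, had 147 and 138 CPM in KO and 94.8 and 67.8 CPM in WT (0.81 ± 0.20, adjusted p = 0.372). Sparc and Adam10 were higher in both KO libraries, as were the microglia, endothelial and pericyte and fibroblast sums. Sparcl1 was lower in both, as were the neuron and radial glia sums, while the astrocyte sums overlapped between the groups. The part of these cell types was not tested.

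Of the 25 synaptic scaffolds 0 passed, 15 lay below 0 and the median was -0.06. Dlgap1 and Magi1 were the most abundant, with log2 fold changes of 0.18 ± 0.11 and -0.30 ± 0.14 (SE), and Dlg2, which encodes PSD-93, had 22.0 and 24.8 CPM in KO against 35.3 and 35.6 CPM in WT (-0.60 ± 0.23; edgeR, adjusted p = 0.56). Of 10 splicing regulators 0 passed, with a median of -0.14. Ptbp2, a repressor of neuronal exons, had 196 and 224 CPM in KO and 254 and 307 CPM in WT (-0.42 ± 0.15, adjusted p = 0.528), Rbfox1 had a log2 fold change of -0.65 ± 0.28, and Ptbp1 had 0.02 ± 0.16. In 4 of these 10 genes both KO libraries lay below both WT libraries, and in 0 above, beside 18.4% and 21.2% of all tested genes. Neuron markers, which include Rbfox3 of this list, had 9 of 25 genes lower and 4 higher in both KO libraries, and radial glia markers 6 of 12 lower and 0 higher. Astrocyte markers, which share Slc1a3 with the radial glia list, had 2 of 15 lower and 1 higher. The part of these cell types was not tested.

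**Figure D5:**
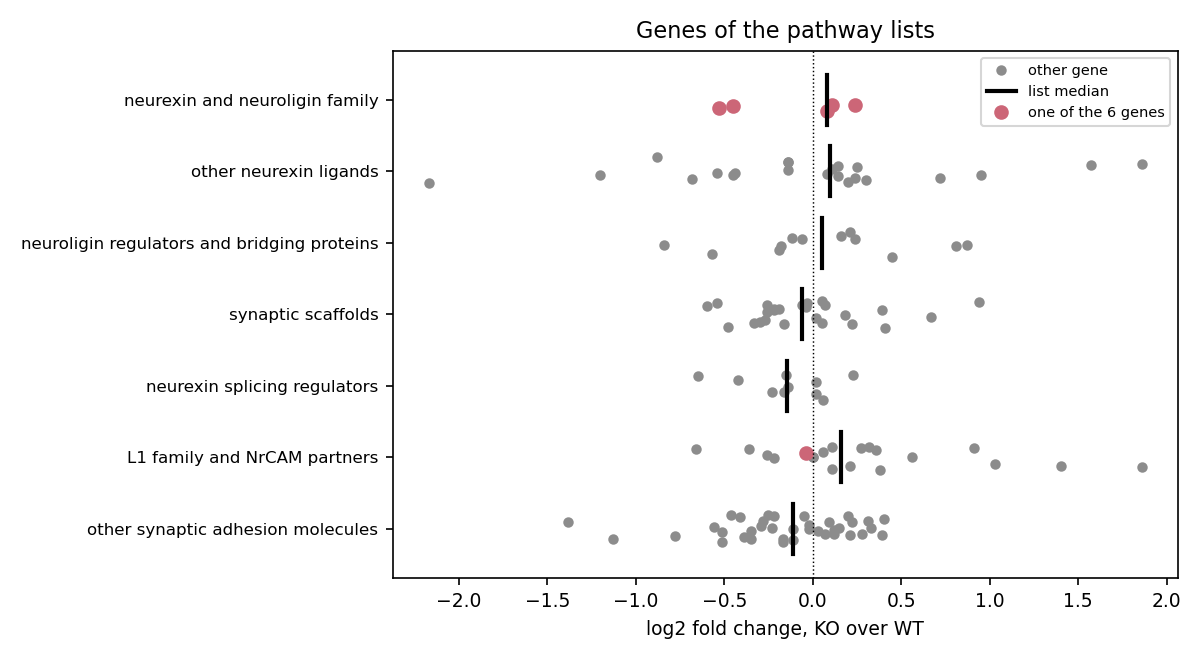
Log2 fold change of KO over WT (x axis) for every tested gene of 7 lists (rows), with the 6 genes of interest in red, other genes in grey and the list median as a black bar. Medians run from -0.14 for the splicing regulators to 0.16 for the L1 family and NrCAM partners.

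Among the 20 genes of the L1 family and NrCAM partners 0 passed, 14 lay above 0 and the median log2 fold change was 0.16. Over the genes averaging 5 CPM or more it was 0.06. Both KO libraries lay above both WT libraries for 8 of the 20 and below for 3, beside 21.2% and 18.4% of all tested genes. Ncam1 and the ankyrin Ank2 were the most abundant, with log2 fold changes of 0.11 ± 0.11 and 0.00 ± 0.13 (SE). Nrp1, a semaphorin and VEGF co-receptor that pairs with L1-family proteins and is known from endothelium, had 142 and 111 CPM in KO and 57.1 and 78.1 CPM in WT (0.91 ± 0.22; edgeR, adjusted p = 0.369). Microglia, endothelial, and pericyte and fibroblast sums were also higher in both KO libraries, and their part was not tested. Cntn1, which encodes the contactin that NrCAM binds, had 413 and 484 CPM in KO and 389.6 and 330.5 CPM in WT (0.32 ± 0.14, adjusted p = 0.64). The summed oligodendrocyte precursor markers, which include none of these genes, were also higher in both KO libraries, and their part was not tested.

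Of 37 other synaptic adhesion molecules 0 passed, 23 lay below 0 and the median was -0.11. Ptprs, a receptor phosphatase, and the ephrin receptor Epha4 were the most abundant, at log2 fold changes of -0.05 ± 0.12 and -0.11 ± 0.13 (SE). Flrt2, a ligand of latrophilins, had 32.4 and 33.7 CPM in KO and 82.8 and 61.4 CPM in WT, and its log2 fold change of -1.13 ± 0.22 had the smallest p of all genes in the pathway lists without passing (edgeR, adjusted p = 0.27). Slitrk2 had 145 and 159 CPM in KO and 125 and 104 CPM in WT (0.40 ± 0.16, adjusted p = 0.579). The groups did not overlap for 14 of the 37, with 9 lower and 5 higher in KO, beside 18.4% lower and 21.2% higher among all tested genes.

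In the authors' deposited table of each KO library against each WT library, 0 of the 6 genes carried the significant label. The deposited log2 fold change of Nrxn3 was below 0 in each of the 4 authors' deposited tables, from -0.82 for KO 1 against WT 2 to -0.28 for KO 2 against WT 1. That of Nlgn1 ran from -0.92 to -0.07 over the authors' deposited tables, with the same pairs at the ends. These tables share libraries and are no independent repeats.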

How the data were processed

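The authors deposited 4 tables, each with whole-number counts per gene for 1 KO and 1 WT library and a log2 fold change between them, per the file headers. The submitters' processing notes name Bowtie2 2.2.3, TopHat2 2.0.12 and HTSeq 0.6.0 with no roles, and the build mm9, but 90.6% of the gene positions, the 6 genes' included, equal GENCODE M21 on GRCm38. The sources used here do not state whether counting used the strand. Tables were joined by gene, and 0 of 80300 repeated counts disagreed. A gene missing from a library's tables was set to 0.

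Groups were compared with edgeR 4.0.16 in R 4.3.3 (TMM, filterByExpr with a minimum count of 10, quasi-likelihood fit, Benjamini-Hochberg over 17696 genes), leaving 2 residual degrees of freedom. The SE is the log2 fold change divided by the root of F. Alternatives were DESeq2 1.42.0, limma-voom (limma 3.58.1), other filters and scalings, the replicate number as a block, each library left out in turn and, chosen after seeing the data, a robust fit and no X and Y genes. The fits were tested on simulated data, with 100 genes changed 2-fold and 100 changed 4-fold, up or down at random. Negative binomial counts were drawn from the mean levels, library sizes and edgeR dispersions of these data. The simulation held no shift of cell types between the groups, so its rates may differ from those in these libraries. At an adjusted p under 0.05, edgeR found 12 and 62 of them and called 1 unchanged gene. DESeq2 found 39 and 71 and called 51 unchanged genes, and limma-voom found 18 and 60 and called 3. Chi-square per gene between replicates was 17.9 in KO and 27 in WT; none of the replicates agreed within sampling noise, and they were kept as separate libraries.

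The 6 genes and all lists were chosen with earlier results of these data known. Named were the 6 genes; from each list the genes past the threshold, or else the 2 most abundant, and the 2 with the smallest p; and for each of the 6 the 2 genes with the nearest pattern. The values of 1 other gene are not reported here.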

Additional observations from a re-analysis of the deposited data

How the results depend on the processing

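The log2 fold changes of Nlgn1, Nlgn2 and Nrxn3 kept their direction under all alternatives run, and none of the 6 genes passed an adjusted p of 0.05 under any. Leaving out 1 library gave -0.80 to -0.18 for Nlgn1, 0.15 to 0.33 for Nlgn2, -0.03 to 0.26 for Nlgn3, -0.05 to 0.22 for Nrxn2, -0.68 to -0.40 for Nrxn3 and -0.16 to 0.07 for Nrcam. The direction turned for Nlgn3 (-0.03) and Nrxn2 (-0.05) without WT replicate 2, and for Nrcam (0.07) without KO replicate 1. Such fits assume that the lone library varies like the other group. The count over all genes, 3 higher and 0 lower, was 316 and 57 with DESeq2, 25 and 3 with limma-voom, 63 and 5 over genes averaging 5 CPM or more, 52 and 4 without a low-count filter and 14 and 1 at an adjusted p under 0.1; the cause was not tested. Leaving out 1 library gave 0 higher (without KO replicate 2) to 41 higher (without WT replicate 2), with 1 without WT replicate 1 and 6 without KO replicate 1, and 0 to 1 lower. Same-numbered libraries deviated with a correlation of 0.04, so the numbers were not treated as pairs. With a replicate block the log2 fold change was -0.48 for Nlgn1 and -0.54 for Nrxn3, with adjusted p of 0.666 and 0.414, and no call among the 6 changed. List medians crossed 0 without 1 of the libraries, with ranges over all alternatives run, for the neurexin and neuroligin family (-0.05 to 0.22), the neuroligin regulators (-0.05 to 0.21), the neurexin ligands (-0.15 to 0.23) and the scaffolds (-0.11 to 0.05). Depth limits Nrxn2, which had 66 to 93 counts per library.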

Other observations

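The other L1-family genes, described after their values were seen, had unlike patterns over the libraries. L1cam lay between 75.8 and 79.4 CPM in all 4 (log2 fold change 0.00 ± 0.16 SE). Nfasc, which encodes neurofascin, had 109.8 and 106 CPM in KO and 98.1 and 68.2 CPM in WT (0.38 ± 0.21), and Chl1 had 59.3 and 68.6 CPM in KO and 70.0 and 79.3 CPM in WT (-0.22 ± 0.18). None of them passed over all genes with edgeR. Nfasc took 15.8% of the family's counts in WT replicate 2 and between 21.8% and 25.3% in the other libraries.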
